A study of Mus musculus with 10 samples.

Results

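The 31 genes described here are a set of NF-kB subunits, inhibitors and target genes, including cytokines, chemokines and adhesion molecules. They were picked from the 33538 genes counted as a named list, with earlier results of these data known. Each was found in the count table by an Ensembl identifier that the list pairs with a symbol (for example ENSG00000108691 for CCL2 and ENSG00000118503 for TNFAIP3). The question was how these genes varied with diet and between tumours.

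The tumours were DAOY cells, an established line from a human medulloblastoma (a tumour of the cerebellum), grown under the flank skin of nude mice. Bulk poly(A) RNA was sequenced after 30 days of treatment. All 3 groups carried the same line in the same kind of host. The 3 control libraries came from mice on ordinary chow. The 3 libraries labelled DHA-oil came from mice given an oil that supplies docosahexaenoic acid (DHA). The 4 libraries labelled Fish-oil were taken to be the arm that received DHA with eicosapentaenoic acid (EPA). The labels give neither the dose of the oils nor the age of the mice, and they tie no library to a mouse, so the spread between libraries may be technical. Below, a library is called a tumour for short. A single line models a single tumour. Nude mice lack mature T cells and keep macrophages, neutrophils and other innate cells, whose own cytokine transcripts are mouse RNA.

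NF-kB is a family of dimeric transcription factors held in the cytoplasm by inhibitors of the IkB family. Ligands such as TNF and the interleukin 1 cytokines activate a kinase that marks the inhibitor for destruction, and the freed dimers switch on genes for cytokines, chemokines, adhesion molecules and survival factors. Among the induced genes are the pathway's own brakes, NFKBIA and TNFAIP3. In solid tumours, these products are known for drawing in myeloid cells, and long-chain omega-3 fatty acids are known for damping NF-kB signalling in immune cells.

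Total counts ranged from 6187116 to 10035702 reads per library. On the first principal component of all genes tested, which held 26.4% of the variance, fish oil replicate 4 (-52.9) and fish oil replicate 2 (-21.4) stood apart from the other 8 libraries (-1.71 to 19.1). Where leaving them out moved a printed log2 fold change between the oils by over 1.5 times, a value without them is printed beside it. For 24.6% of all genes tested the highest library was fish oil replicate 4. On the second principal component, fish oil replicate 2 (29.1) and control replicate 3 (23.55) lay at one end. The other libraries lay between -18.52 and 8.77. The markers listed for leukocytes, endothelium, fibroblasts and muscle, and the receptors and kinases of the pathway, could not be matched to identifiers (0 of 129 symbols). The identity of the tumour cells and the share of host cells were therefore not measured here. In bulk tumours, fewer cells of a type and less RNA per cell cannot be told apart. Whether mouse reads were removed is not given in the sources used here, and the part of host reads in these values was not tested.

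Of the 31 genes, 27 passed the filter on low counts, and 4 did not. IL1A, an alarmin that signals through the interleukin 1 receptor, had 0 to 7 reads per library. CXCL5, a neutrophil chemokine, had 1 to 9 reads. IL24, a cytokine of the interleukin 10 family, had 0 to 2 reads, and 5 libraries held none. CXCL6, a close relative of CXCL5, had 1 read in all, in fish oil replicate 2. A count of 0 allows up to 3 reads, which is 0.293 to 0.480 CPM depending on the library. This limit and the intervals on reads cover counting error only. CPM here are counts scaled to the effective library size, and are not corrected for gene length, so levels of different genes are not compared.

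The 27 genes varied more between libraries than most genes did. Their SD of log2 CPM over the 10 libraries had a median of 0.464, beside 0.237 over all 16013 genes tested. Within diets, the biological coefficient of variation, which is the spread between libraries beyond counting error, had a median of 0.231, beside 0.158 over all genes. It ran from 0.115 for RELA, the main activating subunit, to 0.507 for the cytokine IL1B. It was above the median of all genes for 24 of the 27. Genes with few reads tend to a larger spread, so the comparison is a description.

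**Figure D1:**
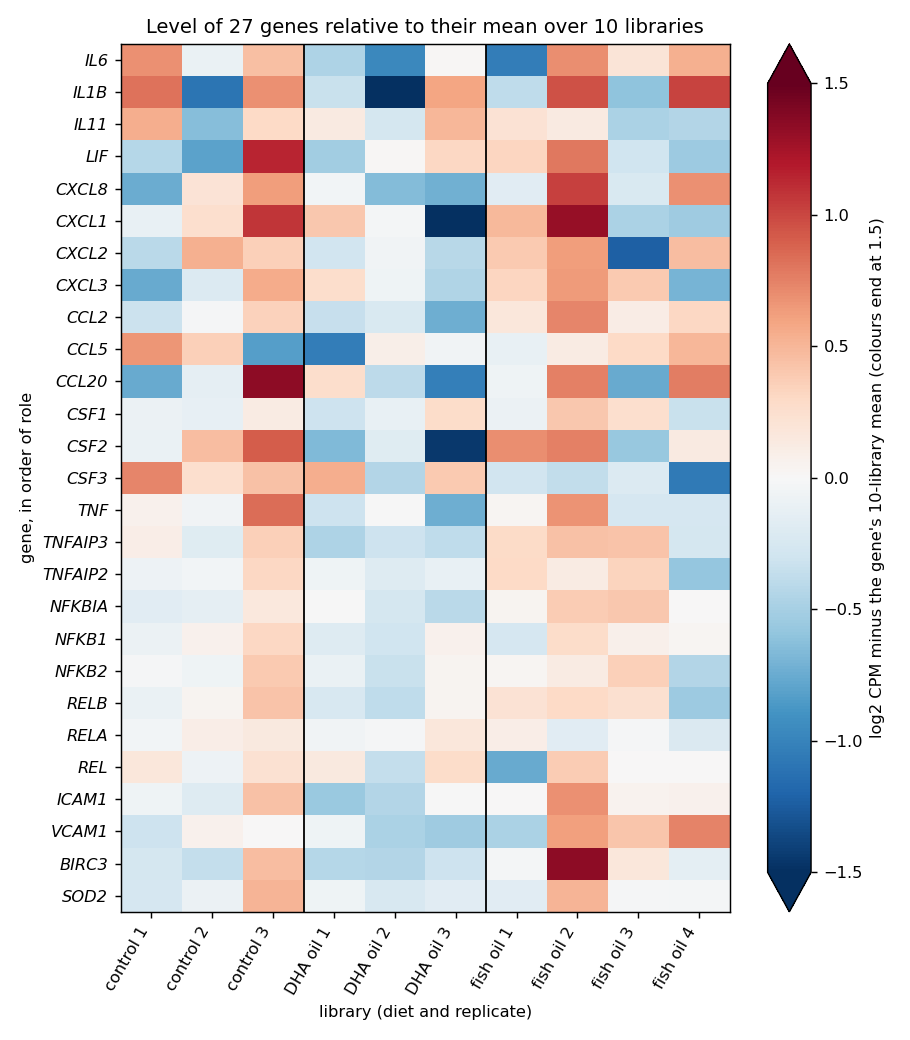
Heat map of 27 genes (rows, in order of role) in the 10 libraries (columns, grouped by diet). Colour gives log2 CPM minus the gene's mean over all libraries, red for higher and blue for lower. The columns of control replicate 3 and fish oil replicate 2 are mostly red. The 3 DHA oil columns are mostly blue, and so are those of control replicates 1 and 2.

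The highest value lay in fish oil replicate 2 or control replicate 3 for 19 of the 27 genes, against 19.4% of all genes tested. For 11 of the 27 genes the highest library was fish oil replicate 2, against 11.4% of all genes tested. For 8 it was control replicate 3, against 7.99% of all genes. Relative to each gene's mean over the 10 libraries, the median of the 27 genes was 0.62 higher on the log2 scale in fish oil replicate 2 and 0.43 higher in control replicate 3. The medians over all genes tested in these libraries were 0.01 and 0.00. Over all genes tested, these libraries also lay at the same end of the second principal component (29.1 and 23.55). In fish oil replicate 2, 15 of the 27 genes lay more than 0.5 above their mean, against 4.73% of all genes, and in control replicate 3 there were 9, against 4.50%.

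The DHA oil tumours lay low for this set, and control replicates 1 and 2 lay below 0 as well. The medians of the 27 genes were -0.19, -0.27 and -0.11 in DHA oil replicates 1, 2 and 3. They were -0.08 and -0.06 in control replicates 1 and 2. In DHA oil replicate 3, 11 of the 27 genes lay above their 10-library mean, beside 8 and 10 in control replicates 1 and 2. The DHA oil mean was the lowest of the 3 diet means for 23 of the 27 genes, against 34.5% of all genes tested. DHA oil replicate 3 held the lowest value of 7 genes, against 7.79% of all genes. Fish oil replicate 4, which stood apart over all genes, did not have high values throughout. It was the highest library for 2 of the 27 genes and the lowest for 6, against 22.6% of all genes lowest there, and its median was -0.03. Genes of 1 library share its RNA, so these counts are not counts of independent events.

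**Figure D2:**
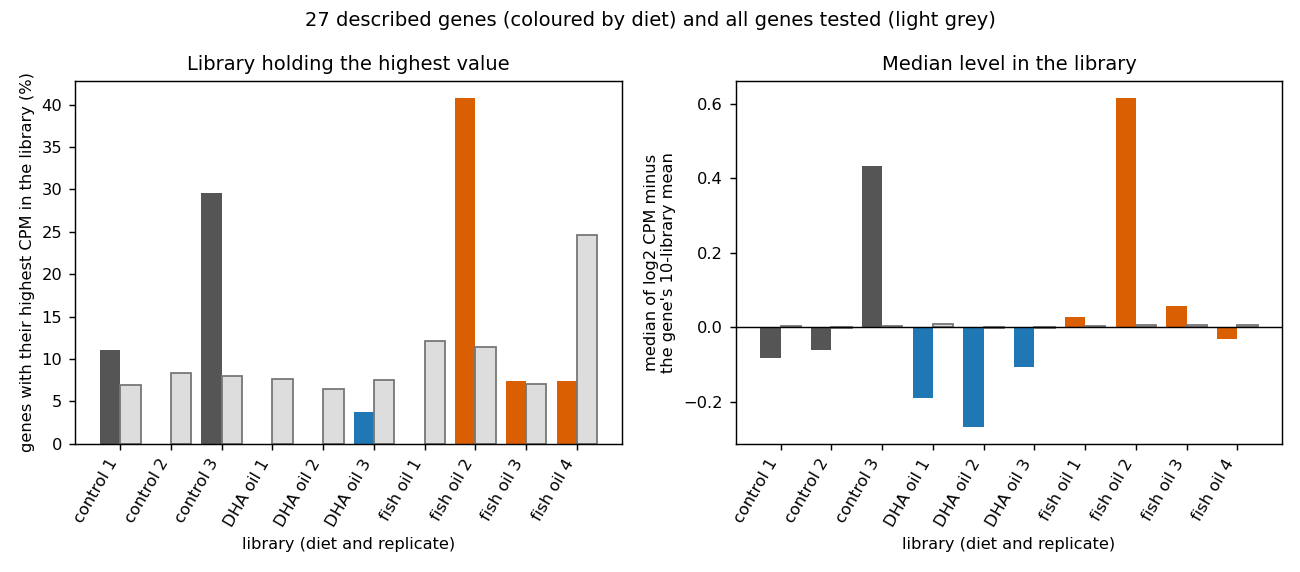
Left, percentage of genes with their highest CPM in each library, for the 27 genes (coloured by diet) and all 16013 genes tested (light grey). Right, median of log2 CPM minus the gene's mean over 10 libraries. Fish oil replicate 2 and control replicate 3 hold the highest values of 11 and 8 of the 27 genes. The medians of the 3 DHA oil libraries lie below 0, and so do those of control replicates 1 and 2 and fish oil replicate 4.

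The comparison of the oils asks how tumours on the Fish-oil diet differed from those on DHA-oil. Fish oil tumours had higher levels than DHA oil tumours of the chemokines CCL2 and CXCL8, the growth factor CSF2, the brakes TNFAIP3 and NFKBIA, the adhesion molecules ICAM1 and VCAM1, and the survival gene BIRC3, each at an unadjusted p under 0.05. CSF3 was lower. None passed adjustment over all genes: edgeR, adjusted by Benjamini-Hochberg, called 0 of the 27, and 0% of all genes, with adjusted p = 0.875 for each of the 9. DESeq2 and limma-voom also called 0 of the 27, with 7 and 8 of them higher at an unadjusted p under 0.05, against 2.49% and 2.55% of all genes in those fits. In those fits 0 of the 27, CSF3 included, were lower at that level, against 1.97% and 2.09% of all genes.

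At that unadjusted level, 8 of the 27 genes were higher with fish oil, against 2.70% of all genes, and 1 was lower, against 2.14% (4.84% in either direction). Log2 fold changes were above 0 for 23 of the 27, against 52.1% of all genes, with a median of 0.47 beside 0.01 over all genes. Groups did not overlap for 5 of the 27, all higher with fish oil, against 2.87% of all genes in that direction and 2.08% in the other. The counts were smaller without fish oil replicate 2. In that fit, 4 genes were higher (CCL2, TNFAIP3, NFKBIA and VCAM1), against 2.04% of all genes, none was lower, and the median of the 27 was 0.20. Without both fish oil replicates 2 and 4, 5 genes were higher (CCL2, TNFAIP3, NFKBIA, RELB and TNFAIP2), against 1.80% of all genes, and the median was 0.26.

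**Figure D3:**
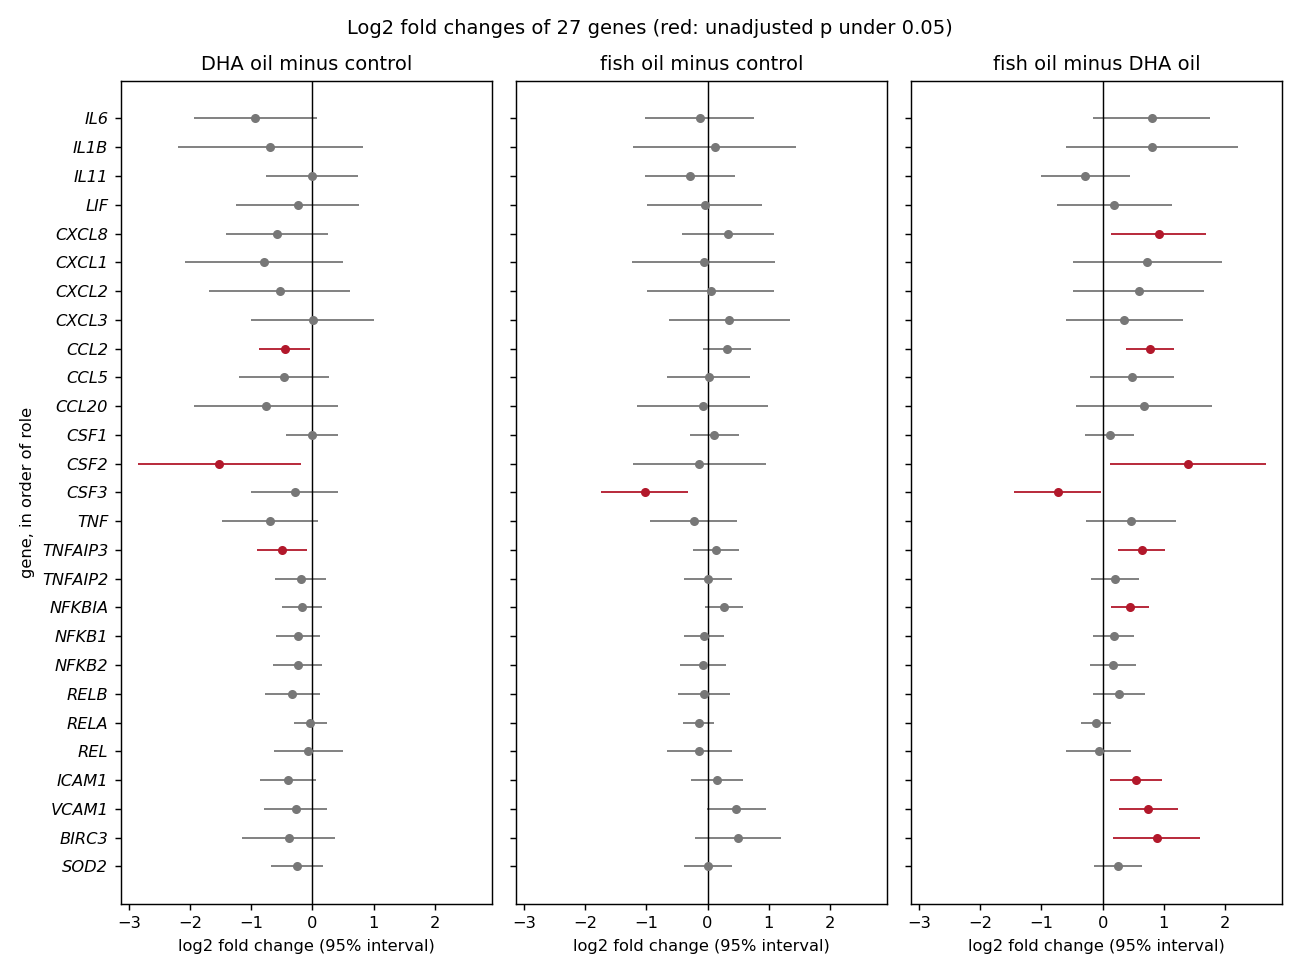
Log2 fold changes (points) with 95% intervals (lines) of the 27 genes in 3 comparisons. Red marks an unadjusted p under 0.05. In fish oil minus DHA oil 23 points lie above 0, and in DHA oil minus control 26 lie below 0. The comparisons share libraries, and no gene was called after adjustment.

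CCL2, the chemokine that recruits monocytes through the receptor CCR2, showed the smallest p of the set between the oils. It stood at 115, 142 and 183 CPM in control replicates 1, 2 and 3. DHA oil replicates 1, 2 and 3 held 113, 122 and 86.3 CPM, and fish oil replicates 1, 2, 3 and 4 held 161, 238, 155 and 178 CPM. Every fish oil tumour was above every DHA oil tumour, and the control tumours overlapped both. Control averaged 147 ± 34.2 CPM (SD, n = 3), DHA oil 107 ± 18.7 CPM (SD, n = 3) and fish oil 183 ± 38.0 CPM (SD, n = 4). Fish oil was 1.71-fold higher than DHA oil, a log2 fold change of 0.78 ± 0.19 (SE; 95% interval 0.38 to 1.17), with an unadjusted p of 0.000857. Its log2 fold change was 0.62 without fish oil replicate 2 and 0.56 without fish oil replicates 2 and 4. Without the filter on low counts CCL2 was called (log2 fold change 0.77, adjusted p = 0.0222), and it was not called under any other alternative tried, where the adjusted p reached 1.

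For the other chemokines the oils overlapped. CXCL8 (ENSG00000169429), a neutrophil attractant for which the mouse has no counterpart gene, stood at 4.56, 9.02 and 12.2 CPM in control, 7.57, 4.89 and 4.64 CPM in DHA oil, and 6.88, 16.1, 6.64 and 12.7 CPM in fish oil replicates 1 to 4. The high fish oil values were those of replicates 2 and 4, and fish oil replicates 1 and 3 overlapped DHA oil. Between the oils the log2 fold change was 0.92 (0.14 to 1.69), and it was 0.26 without fish oil replicates 2 and 4.

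CXCL1, CXCL2 and CXCL3 are neutrophil chemokines that act through CXCR2. They are near-identical in sequence, and how reads shared by such genes were counted is not given, so their split is uncertain. CXCL1 held 3.40, 4.44 and 8.02 CPM in control, 4.97, 3.62 and 0.527 CPM in DHA oil, and 5.28, 9.50, 2.61 and 2.48 CPM in fish oil. The low value of DHA oil replicate 3 came from 5 reads (95% Poisson interval 1.62 to 11.7 reads), and the range over the libraries was 18.0-fold. CXCL2 rested on 2 to 15 reads per library. It stood at 0.637, 1.44 and 1.24 CPM in control, 0.709, 0.880 and 0.632 CPM in DHA oil, and 1.28, 1.55, 0.261 and 1.35 CPM in fish oil. The groups overlapped for all of these, CXCL3 included (0.637 to 2.06 CPM over all libraries).

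CCL20, which attracts cells bearing CCR6, stood at 1.70, 2.74 and 8.02 CPM in control, 3.67, 2.25 and 1.37 CPM in DHA oil, and 2.88, 5.26, 1.69 and 5.29 CPM in fish oil. Control replicate 3 was 1.52 times the next library, and the groups overlapped. CCL5, a T cell and monocyte attractant, ran against that pattern. It was lower in control replicate 3 (5.39 CPM) than in control replicates 1 and 2 (15.5 and 12.6 CPM). It ranged from 4.61 to 10.4 CPM in DHA oil and from 8.97 to 13.9 CPM in fish oil.

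**Figure D4:**
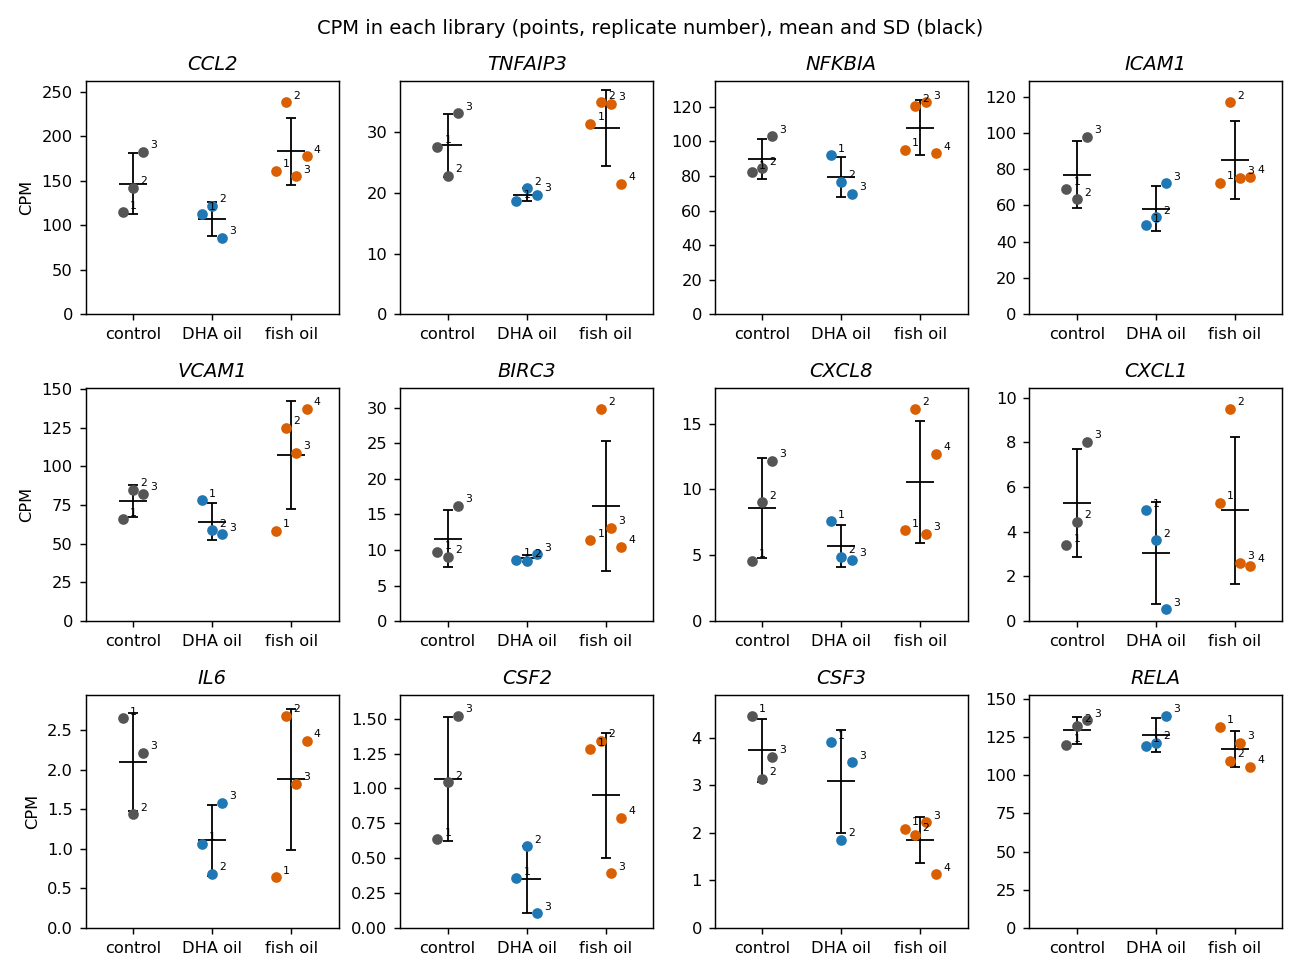
CPM of 12 genes in each library (points, numbered by replicate) by diet, with the mean and SD in black. Each vertical axis starts at 0 and has its own scale. For CCL2, TNFAIP3, NFKBIA, ICAM1 and BIRC3 all 4 fish oil points lie above all 3 DHA oil points, and RELA shows little spread.

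The pathway's brakes also differed between the oils at the unadjusted level. TNFAIP3, a ubiquitin-editing enzyme that shuts off signalling to NF-kB, stood at 27.6, 22.7 and 33.1 CPM in control, 18.6, 20.7 and 19.7 CPM in DHA oil, and 31.4, 34.9, 34.7 and 21.5 CPM in fish oil replicates 1 to 4. The DHA oil tumours were close to each other and below every control and every fish oil tumour. The control mean was 27.8 ± 5.16 CPM (SD, n = 3), that of DHA oil 19.7 ± 1.08 CPM (SD, n = 3) and that of fish oil 30.6 ± 6.28 CPM (SD, n = 4). Fish oil was 1.55-fold higher than DHA oil, a log2 fold change of 0.64 ± 0.18 (SE; 0.25 to 1.02), and 0.57 without fish oil replicate 2. The unadjusted p was 0.00326.

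NFKBIA (ENSG00000100906) encodes the inhibitor IkB alpha, which binds NF-kB dimers and is itself induced by them. It stood at 82.1, 84.4 and 102.9 CPM in control, 92.0, 76.7 and 69.7 CPM in DHA oil, and 95.3, 120.5, 122.6 and 93.0 CPM in fish oil. The lowest fish oil value, 93.0 CPM, lay just above the highest DHA oil value, 92.0 CPM. NFKBIA had a log2 fold change of 0.44 ± 0.15 (SE; 0.13 to 0.75) between the oils, and 0.38 without fish oil replicate 2. TNFAIP2, a TNF-induced gene of cell protrusions, did not separate the diets, at 143 to 186 CPM in control, 132 to 144 CPM in DHA oil and 100.3 to 191 CPM in fish oil.

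Both adhesion molecules were higher with fish oil than with DHA oil at the unadjusted level. ICAM1 (ENSG00000090339), the ligand of leukocyte integrins, stood at 69.3, 63.4 and 97.9 CPM in control, 49.1, 53.5 and 72.3 CPM in DHA oil, and 72.4, 117, 75.3 and 75.7 CPM in fish oil. Fish oil replicate 2 was far above the other fish oil tumours, of which the lowest (72.4 CPM) was just above the highest DHA oil tumour (72.3 CPM). ICAM1 had a log2 fold change between the oils of 0.55 (0.12 to 0.98), and 0.35 (unadjusted p = 0.0675) without fish oil replicate 2.

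VCAM1 (ENSG00000162692), which binds the integrin VLA-4 on leukocytes, stood at 65.8, 85.1 and 82.1 CPM in control, 78.0, 58.7 and 56.0 CPM in DHA oil, and 58.4, 125, 109 and 137 CPM in fish oil. Fish oil replicates 2, 3 and 4 were above all other libraries, and fish oil replicate 1 lay among the DHA oil tumours. The log2 fold change was 0.75 (0.26 to 1.23), and 0.39 without fish oil replicates 2 and 4.

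BIRC3 (ENSG00000023445), a ubiquitin ligase that protects cells from TNF-induced death, was far higher in 1 tumour than in the rest. It stood at 9.65, 9.02 and 16.2 CPM in control, 8.63, 8.50 and 9.37 CPM in DHA oil, and 11.4, 29.8, 13.2 and 10.5 CPM in fish oil. The 3 DHA oil tumours were below every fish oil tumour, and fish oil replicate 2 was 1.84 times the next library, control replicate 3. BIRC3 had a log2 fold change of 0.89 (0.18 to 1.60) between the oils, and 0.40 (unadjusted p = 0.109) without fish oil replicate 2. SOD2, the mitochondrial superoxide dismutase that NF-kB induces, had its 2 highest values in control replicate 3 and fish oil replicate 2 (122 CPM in each) and lay between 72.2 and 84.8 CPM in the other 8 libraries.

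The cytokines and growth factors were counted from few reads. IL6 (ENSG00000136244), which signals through gp130 to STAT3, stood at 2.65, 1.44 and 2.21 CPM in control, 1.06, 0.684 and 1.58 CPM in DHA oil, and 0.641, 2.68, 1.82 and 2.36 CPM in fish oil, from 4 to 26 reads per library. Fish oil replicate 1 was the lowest library of all and the other 3 fish oil tumours exceeded every DHA oil tumour. Fish oil minus DHA oil gave a log2 fold change of 0.80 (-0.15 to 1.76), and of 0.20 without fish oil replicates 2 and 4. IL1B, the inflammasome cytokine, rested on 2 to 23 reads. It stood at 2.12, 0.392 and 1.94 CPM in control, 0.828, 0.196 and 1.79 CPM in DHA oil, and 0.801, 2.37, 0.651 and 2.48 CPM in fish oil. Each diet held both high and low tumours, with fish oil replicates 2 and 4 the highest.

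LIF, a cytokine of the same receptor family as IL6, stood at 3.82, 2.88 and 11.8 CPM in control, 3.55, 5.28 and 6.53 CPM in DHA oil, and 6.57, 9.19, 4.17 and 3.49 CPM in fish oil. The highest values were again those of control replicate 3 and fish oil replicate 2. IL11, which also acts through gp130, ranged from 1.83 to 4.46 CPM, and TNF from 1.79 to 5.81 CPM, with overlapping groups. The log2 fold change of TNF between the oils was 0.47 (-0.28 to 1.21), and 0.17 without fish oil replicate 2.

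The colony-stimulating factors did not move together. CSF2 (ENSG00000164400), the growth factor of granulocytes and macrophages, was counted at 1 to 13 reads per library. It stood at 0.637, 1.05 and 1.52 CPM in control, 0.355, 0.587 and 0.105 CPM in DHA oil, and 1.28, 1.34, 0.391 and 0.788 CPM in fish oil. The DHA oil tumours were below every control in CPM, though DHA oil replicate 2 and control replicate 1 both held 6 reads. Fish oil replicate 3 overlapped the DHA oil tumours. Fish oil minus DHA oil gave a log2 fold change of 1.39 (0.12 to 2.66; unadjusted p = 0.0343), and of 1.14 (unadjusted p = 0.106) without fish oil replicate 2.

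CSF3 (ENSG00000108342), the neutrophil growth factor, went the other way. It stood at 4.46, 3.14 and 3.60 CPM in control, 3.90, 1.86 and 3.48 CPM in DHA oil, and 2.08, 1.96, 2.22 and 1.13 CPM in fish oil. All 4 fish oil tumours were below all 3 controls, and DHA oil replicate 2 lay among the fish oil tumours. Between the oils CSF3 had a log2 fold change of -0.74 (-1.45 to -0.02; edgeR unadjusted p = 0.0445). It missed an unadjusted p under 0.05 with DESeq2 and limma-voom. It also missed that level without control replicate 3, DHA oil replicate 1 or 3, or fish oil replicate 2 or 4. CSF1, which maintains macrophages, ranged from 25.2 to 42.5 CPM, and the oils differed by a log2 fold change of 0.12 (-0.28 to 0.51), which was -0.015 without fish oil replicate 2.

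The 5 subunits of NF-kB ranged over the libraries from 1.32-fold for RELA to 2.26-fold for REL. RELA (ENSG00000173039) stood at 119.6, 133 and 136 CPM in control, 119.2, 121 and 139 CPM in DHA oil, and 132, 109.6, 121 and 106 CPM in fish oil. The diets overlapped, and the oils differed by a log2 fold change of -0.11, with an interval of -0.36 to 0.14, and by 0.001 without fish oil replicates 2 and 4. NFKB1, the precursor of p50, ranged from 24.1 to 36.9 CPM and NFKB2, the precursor of p52, from 40.1 to 71.6 CPM. RELB, the partner of p52 in the noncanonical pathway, ranged from 23.3 to 46.0 CPM, and REL from 5.12 to 11.6 CPM. Of the 5 subunits 0 were called or reached an unadjusted p under 0.05 in the edgeR fit of all 10 libraries, in any of the 4 comparisons. In limma-voom, RELB was higher with fish oil than with DHA oil at that level. It was so too in edgeR without fish oil replicate 4, and without fish oil replicates 2 and 4. With a term for replicate number, RELB and NFKB2 were. RELB was also lower with DHA oil than with control at that level in limma-voom. The same held in edgeR with the replicate term, and without fish oil replicates 2 and 4. For NFKB1, NFKB2 and RELB control replicate 3 was the highest library. The largest upper bound of a subunit's interval between the oils was 0.70, for RELB.

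The comparison of DHA oil with control used the same DHA oil libraries as the comparison above. CSF2, TNFAIP3 and CCL2 were lower with DHA oil at an unadjusted p under 0.05. Their log2 fold changes were -1.52 (-2.85 to -0.19) for CSF2, -0.50 (-0.91 to -0.09) for TNFAIP3 and -0.45 (-0.87 to -0.03) for CCL2. The groups did not overlap for CSF2 and TNFAIP3, and overlapped for CCL2, where control replicate 1 (115 CPM) was below DHA oil replicate 2 (122 CPM). IL6 was lower by a log2 fold change of -0.93 (-1.94 to 0.08) and TNF by -0.69 (-1.47 to 0.09), with intervals that held 0.

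edgeR called 0 of the 27 genes after Benjamini-Hochberg adjustment (adjusted p = 1), against 0% of all genes, and DESeq2 and limma-voom called 0 as well. At an unadjusted p under 0.05, 3 of the 27 were lower, against 1.72% of all genes, and none was higher, against 1.02% (2.74% in either direction). DESeq2 and limma-voom had 3 and 7 of the 27 lower at that level, against 1.63% and 3.80% of all genes in those fits. Groups did not overlap for 2 of the 27, both lower, against 5.93% of all genes lower in this way and 4.66% higher. Log2 fold changes were below 0 for 26 of the 27, where 50.8% of all genes lay above 0, and the median was -0.33 beside 0.00 over all genes. The counts were smaller without control replicate 3. In that fit, 20 of the 27 lay below 0, the median was -0.16, and 1 gene, CCL5, was lower at an unadjusted p under 0.05, against 1.12% of all genes. In the same fit the log2 fold changes were -1.20 for CSF2, -0.36 for TNFAIP3 and -0.26 for CCL2. Without DHA oil replicate 1, 0 genes reached that level, against 1.12% of all genes lower and 1.02% higher, and 24 lay below 0. Without control replicate 2, 5 did (ICAM1, TNFAIP3, IL6, CSF2 and TNF), all lower, against 1.90% of all genes.

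The comparison of fish oil with control gave a count near the background. At an unadjusted p under 0.05, 1 of the 27 genes was lower, CSF3, against 1.84% of all genes, and none was higher, against 1.64% (3.48% in either direction). Fish oil minus control gave CSF3 a log2 fold change of -1.03 (-1.74 to -0.32; 2.04-fold lower), with means of 3.73 ± 0.670 CPM (SD, n = 3) for control and 1.85 ± 0.491 CPM (SD, n = 4) for fish oil. CSF3 was the 1 gene of the 27 whose groups did not overlap, against 2.00% of all genes lower in this way and 1.74% higher. It was not called (adjusted p = 0.999). Without fish oil replicates 2 and 4 the log2 fold change was -0.80, and CSF3 missed that level (edgeR unadjusted p = 0.0579). edgeR, DESeq2 and limma-voom called 0 of the 27, where edgeR called 0.00624% of all genes, and DESeq2 and limma-voom each had 1 higher and 1 lower at an unadjusted p under 0.05. In those fits 1.51% and 1.31% of all genes were higher and 1.71% and 1.82% were lower. VCAM1 was higher by a log2 fold change of 0.47 (-0.01 to 0.96), and by 0.12 without fish oil replicates 2 and 4.

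Log2 fold changes were above 0 for 14 of the 27 genes, against 51.5% of all genes, with a median of 0.00. The balance moved with single libraries. Without control replicate 3, 21 of the 27 lay above 0, the median was 0.20, and BIRC3, NFKBIA and CCL2 were higher at an unadjusted p under 0.05 beside the lower CSF3, against 0.999% of all genes higher and 1.41% lower. Without fish oil replicate 2, 9 lay above 0 and the median was -0.14. Without fish oil replicate 1, VCAM1 and NFKBIA were higher at that level, against 4.52% of all genes in that fit. Without fish oil replicate 4 NFKBIA was higher, against 1.22%. CSF3 was lower in both fits, against 4.75% and 1.87%.

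With both oils set against control, edgeR called 0 of the 27 genes (adjusted p = 1), against 0.131% of all genes. DESeq2 and limma-voom called 0 as well. At an unadjusted p under 0.05, CSF3 was lower, with a log2 fold change of -0.66 (-1.27 to -0.05), against 1.64% of all genes lower at that level (2.62% in either direction), and DESeq2 and limma-voom had 1 and 2 genes there, against 1.45% and 2.79% of all genes lower in those fits. CSF3 missed that level without control replicate 1, control replicate 3, DHA oil replicate 2 or fish oil replicate 4. Groups overlapped for all 27 genes, against 1.12% of all genes without overlap. The 27 log2 fold changes ran from -0.83 to 0.18 with a median of -0.15 beside 0.00 over all genes, and 22 lay below 0, where 50.4% of all genes lay above 0. Without control replicate 3, 14 lay below 0 and the median was -0.01.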

How the data were processed

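The deposited table holds raw counts of reads per human gene in 10 libraries, as the authors counted them with no normalization visible in the values. The submitters' processing notes name STAR, HTSeq 0.9.0 and the build GRCh38. Libraries were stranded and poly(A)-selected, with single 75 bp reads, per the labels' protocols. No source used here gives the annotation release or the strand setting of the counting, so overlapping and antisense genes are uncertain.

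Genes were kept by filterByExpr (minimum count 10), which left 16013 of 33538. With TMM scaling, a single model with a term for diet covered the 10 libraries, and contrasts were tested by edgeR's quasi-likelihood F test (edgeR 4.0.16, R 4.3.3). P-values were adjusted by Benjamini-Hochberg over all genes tested, with a threshold of 0.05. SEs of log2 fold changes were derived from F, and 95% intervals use the test's total degrees of freedom (median 14.7). Log2 CPM used a prior count of 2. Groups came from the sample titles. Totals of 6187116 to 10035702 counts make genes under about 10 reads imprecise.

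The 31 members and the gene lists were chosen with earlier results of these data known. Values in every library are given for members at an unadjusted p under 0.05 in a comparison, without overlap of 2 groups, among the 8 with the largest SD, or fixed by name (IL6, CXCL8, NFKBIA, TNFAIP3, RELA). Ranges are given for the rest. The reference tables at hand are of mouse and matched 0 of the 33538 identifiers and 0 of 129 symbols in 7 further lists (kinases and brakes, receptors, other targets, and leukocyte, endothelial, fibroblast and muscle markers), so these lists have no values, and no sequence or position is printed. The tests were checked on counts simulated with the same biological coefficient of variation for every gene (0.163). The median of the 27 genes was 0.231, so that check does not cover their larger spread. Alternatives were RLE and upper-quartile scaling, no filter or a strict one (minimum count 50), DESeq2 1.42.0, limma-voom (limma 3.58.1), a replicate block, a fit of just the diets compared, each library left out, and fish oil replicates 2 and 4 left out. Control replicate 3 and fish oil replicate 2 were left out together as an alternative chosen after the data were seen.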

Additional observations from a re-analysis of the deposited data

Results flagged for a closer look

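Among the 27 genes, a fish oil library far from the other 3 was looked for by the gap to the nearest value as a share of the group's range, with 0.829 as the critical value, and 3 genes (11.1%) had one, against 5.85% of all 16013 genes tested. Chance alone flags about 1 in 20 groups. ICAM1 stood at 117 CPM in fish oil replicate 2 against 72.4 to 75.7 CPM in the others, a gap of 0.926 of the range. BIRC3 stood at 29.8 CPM in fish oil replicate 2 against 10.5 to 13.2 CPM, a gap of 0.861. RELB, the noncanonical subunit, stood at 23.3 CPM in fish oil replicate 4 against 39.6 to 42.0 CPM, a gap of 0.869. Fish oil replicates 2 and 4 are also the libraries that stood apart on the first principal component of all genes.

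CCL2 was below the control mean of 147 CPM in all 3 DHA oil tumours and above it in all 4 fish oil tumours. Fish oil minus DHA oil gave a log2 fold change of 0.78 for it, with an edgeR adjusted p of 0.875 (0.0222 to 1 over the alternatives), so it was not called.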

How the results depend on the processing

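The count of called genes among the 27 was 0 in each of the 4 comparisons and stayed 0 under every alternative run, with 1 exception: with no filter on low counts, 1 gene (CCL2) was called for fish oil minus DHA oil. The strict filter left 17 of the 27 genes to test. The number at an unadjusted p under 0.05 was less steady. It was 9 for fish oil minus DHA oil (4 to 9 over the alternatives), 3 for DHA oil minus control (0 to 7), 1 for fish oil minus control (0 to 4) and 1 for both oils minus control (0 to 2). Over all genes, the numbers called were 0, 0, 1 and 21 in the same order, and 0 to 14, 0 to 57, 0 to 56 and 0 to 76 over the alternatives. Those at an unadjusted p under 0.05 were 775, 438, 558 and 419, and 468 to 1760, 250 to 1002, 336 to 1484 and 247 to 853. The cause of these shifts was not tested.

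Without control replicate 3 and fish oil replicate 2 together, 5 of the 27 genes were higher with fish oil than with DHA oil at an unadjusted p under 0.05 (CCL2, TNFAIP3, NFKBIA, ICAM1 and VCAM1), against 1.73% of all genes. The median log2 fold change of the 27 there was 0.195, beside 0.465 with all libraries. For DHA oil minus control in that fit, 1 gene (CCL5) was lower at that level, against 1.14% of all genes, and the median was -0.159. RLE and upper-quartile scaling shifted the median of all genes by at most 0.004 on the log2 scale. Deviations of same-numbered libraries correlated at -0.171 to 0.182, beside -0.237 to 0.266 for libraries of different numbers and diets. With so few libraries this does not settle whether the numbers mark a pairing. With the replicate block 0 of the 27 genes were called in any comparison, with 9, 4, 2 and 0 at an unadjusted p under 0.05 in the order above (2.22%, 1.22%, 1.08% and 0.943% of all genes higher and 1.46%, 2.51%, 1.57% and 2.12% lower). Of the 6 libraries numbered 1 to 3 in a comparison, 3, 2 and 0 were closest to their own number for fish oil minus DHA oil, DHA oil minus control and fish oil minus control. Depth limits CSF2, CXCL2, IL1B and IL6, each with a library of 4 reads or fewer.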
